A study of Mus musculus with 43 samples.

Results

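The TNF receptor superfamily was followed through 9 genes: Tnfrsf11b, Tnfrsf12a, Tnfrsf23, Tnfrsf1b, Tnfrsf10b, Tnfrsf1a, Ltbr, Tnfrsf19 and Tnfrsf21. They were taken by symbol from the 23951 genes of the bulk RNA tables and the 54307 genes of the single-cell matrices, and all 9 were found in both. The 9 were selected on measured values of these same libraries, so their levels are given as a description and carry no test. All 9 had means of 1 or more FPKM (fragments scaled by transcript length and library total) in each of the 3 bulk tables.

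The study grew primary intestinal organoids, crypt-derived epithelial cultures, from wild-type C57BL/6 mice. Bulk RNA came from 6 groups of 3 libraries. Organoids were collected on day 7 without irradiation (D7 non-IR), on day 7 after 4 Gy on day 4 (D7 IR), or on day 11 after 4 Gy on day 4 (D11 IR). Each setting had a group given vehicle and a group given 2 ng/mL TGFB1, the cytokine transforming growth factor beta 1, for 24 h from day 6, so D11 IR organoids were collected days after that exposure. Single-cell libraries of organoids irradiated with 4 Gy were collected on day 8 after 6, 15 or 24 h at 1 ng/mL TGFB1 or after vehicle, called 0 h. The other 3 single-cell libraries held live RFP-positive crypt cells of Mki67tm1.1Cle/J mice, whose Ki67-RFP reporter allele marks cycling cells. One library came from a non-irradiated littermate and 2 were taken 56 h after 12 Gy to the whole body. The non-irradiated and irradiated crypt cells passed strainers of different mesh. ATAC-seq was also collected in 18 libraries and was not analysed here, because the peaks did not match the build of the gene table used.

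Receptors of this family bind trimeric ligands of the TNF superfamily and recruit adaptor proteins. The adaptors lead to NF-kB activation or, from receptors with a death domain, to caspase-8, and some members are decoys that bind ligand without signalling. In the intestinal epithelium the family is known for setting survival against cell death and for inflammatory gene expression after injury.

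The bulk tables hold no read counts, so their depth is unknown. The single-cell libraries kept 699 to 4283 cells with median totals of 6709 to 14400 UMIs (unique molecular identifiers). Among all pairs of libraries, 2 pairs shared 1 kept barcode each and the other pairs shared 0. The epithelial markers summed to 4705 to 14670 FPKM over the bulk libraries, and the endothelial markers to at most 0.415 FPKM. Ptprc, the pan-leukocyte marker, lay at or under 0.0726 FPKM. The mesenchymal markers summed to 0.437 to 0.872 FPKM with vehicle and to 3.17 to 4.86 FPKM in D7 IR organoids with TGFB1. Most of the latter sum was Acta2, at 2.56 to 4.14 FPKM, while Col3a1, Dcn and Lum stood at 0 there.

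With TGFB1, 5 genes were above every vehicle library in all 3 TGFB1 libraries of each bulk setting: Tnfrsf11b, Tnfrsf12a, Tnfrsf23, Tnfrsf1b and Tnfrsf10b. Tnfrsf1a, Ltbr, Tnfrsf19 and Tnfrsf21 differed between settings. In D7 non-IR organoids 5 of the 9 genes were higher and 3 lower without overlap of libraries, where 72.1% of all genes tested did not overlap. In D7 IR organoids 6 were higher and 1 lower, beside 78.2% of all genes tested. On day 11 there were 6 higher and 1 lower, beside 70% of all genes tested. The genes were chosen on these contrasts and nothing is read from the counts.

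**Figure D1:**
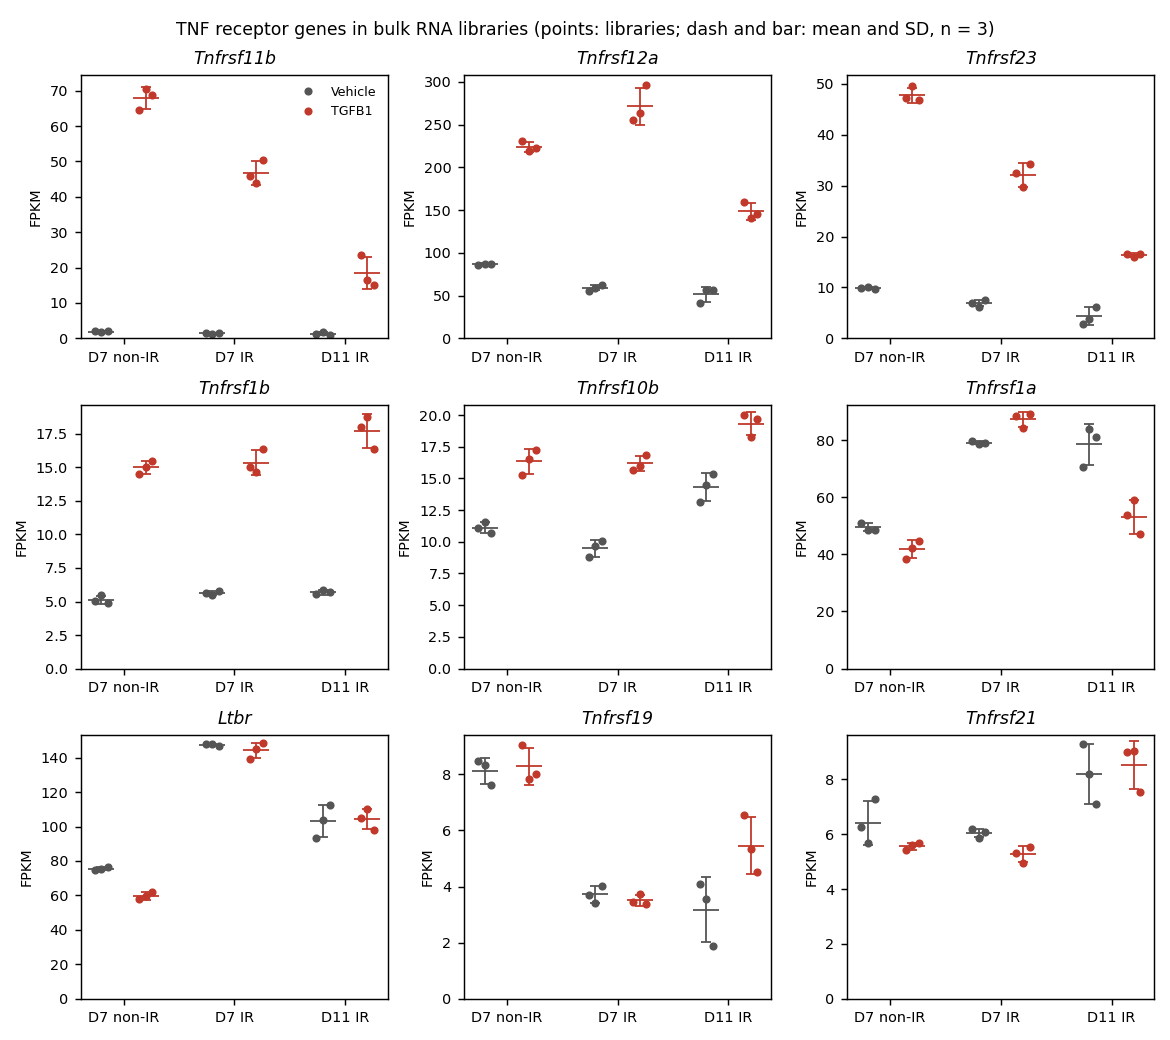
FPKM (y axis, linear from 0) of each TNF receptor gene in the 18 bulk RNA libraries, by setting (x axis) and treatment (grey, vehicle; red, TGFB1). Points are libraries, dashes means and bars the SD (n = 3). Tnfrsf11b lies under 2 FPKM in every vehicle library and at means of 68.0, 46.8 and 18.4 FPKM with TGFB1, while Ltbr separates by setting.

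Tnfrsf11b encodes osteoprotegerin, a secreted decoy that binds the ligands RANKL (Tnfsf11) and TRAIL (Tnfsf10). In D7 non-IR organoids its level was 1.95, 1.69 and 1.98 FPKM with vehicle and 64.5, 70.5 and 68.9 FPKM with TGFB1. Vehicle libraries of D7 IR organoids stood at 1.46, 1.24 and 1.65 FPKM and TGFB1 libraries at 45.9, 43.9 and 50.5 FPKM. In D11 IR organoids it was 1.31, 1.69 and 0.966 FPKM with vehicle and 23.6, 16.6 and 15.1 FPKM with TGFB1. Every TGFB1 library lay far above every vehicle library, with ratios of group means of 36.2, 32.2 and 13.96. The vehicle means of 1.87 ± 0.16, 1.45 ± 0.20 and 1.32 ± 0.36 FPKM (SD, n = 3) lay closer together than the TGFB1 means. The 3 tables were normalized separately, so levels set across them are a description. In bulk RNA, more cells of a type and more RNA per cell cannot be told apart. The Clu-positive regenerative marker list moved in the same libraries: its summed level was 217 to 243 FPKM with vehicle and 2479 to 2579 FPKM with TGFB1 in D7 non-IR organoids, and its part in the Tnfrsf11b level was not tested in bulk RNA.

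Tnfrsf12a encodes Fn14, the receptor of TWEAK (Tnfsf12) and a gene known to be induced in injured tissue. In D7 non-IR organoids its level was 85.3, 87.0 and 87.3 FPKM with vehicle and 230.6, 219 and 223 FPKM with TGFB1. With vehicle, D7 IR organoids had 56.0, 59.5 and 62.1 FPKM, and with TGFB1 255, 263 and 296 FPKM. The D11 IR libraries stood at 41.6, 56.3 and 57.0 FPKM with vehicle and 159.9, 141 and 146 FPKM with TGFB1. The groups did not overlap in any setting, and the ratio of means was 2.59, 4.59 and 2.88. Per transcript length Tnfrsf12a was the most abundant of the 9 in D7 non-IR organoids with vehicle (86.5 ± 1.07 FPKM, SD, n = 3), followed by Ltbr (75.6 ± 0.91 FPKM), and their libraries did not overlap. In irradiated organoids with vehicle it stood behind Ltbr and Tnfrsf1a on both days.

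Tnfrsf23 encodes a mouse decoy receptor for TRAIL, and its neighbour in the annotation is Tnfrsf22, a near copy with the same role. In D7 non-IR organoids the level of Tnfrsf23 was 9.99, 10.1 and 9.60 FPKM with vehicle and 47.2, 49.5 and 46.7 FPKM with TGFB1. Vehicle libraries of D7 IR organoids stood at 7.03, 6.24 and 7.57 FPKM and TGFB1 libraries at 32.4, 29.7 and 34.3 FPKM. In D11 IR organoids it was 2.80, 3.87 and 6.24 FPKM with vehicle and 16.6, 15.9 and 16.6 FPKM with TGFB1. The ratios of means were 4.83, 4.63 and 3.81, and the D11 IR vehicle libraries were the most spread of the 6 groups for their mean (4.30 ± 1.76 FPKM, SD, n = 3). Reads could be split between Tnfrsf23 and Tnfrsf22 by the authors' counting, so both levels are uncertain. In the single-cell matrices 89.2% to 97.4% of the Tnfrsf23 UMIs stood in whole-number entries.

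Tnfrsf1b encodes TNFR2, a receptor for TNF without a death domain. Its level with vehicle was nearly the same in the 3 settings: 5.07, 5.46 and 4.89 FPKM in D7 non-IR, 5.66, 5.51 and 5.79 FPKM in D7 IR, and 5.53, 5.88 and 5.67 FPKM in D11 IR organoids. With TGFB1 it was 14.5, 15.1 and 15.5 FPKM, then 15.0, 14.6 and 16.4 FPKM, then 18.05, 18.8 and 16.3 FPKM in the same order. Of the 5 genes that were higher with TGFB1 throughout, it varied least between settings, with ratios of means of 2.92, 2.72 and 3.11.

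Tnfrsf10b encodes the mouse TRAIL death receptor, a known target of p53. With vehicle its level was 11.1, 11.5 and 10.7 FPKM in D7 non-IR, 8.77, 9.64 and 10.0 FPKM in D7 IR, and 13.2, 14.5 and 15.4 FPKM in D11 IR organoids. With TGFB1 it was 15.3, 16.5 and 17.2 FPKM, then 15.7, 16.0 and 16.9 FPKM, then 20.03, 18.3 and 19.6 FPKM. The groups did not overlap in any setting, but the ratios of means were small beside those of the 4 genes above, at 1.47, 1.71 and 1.35.

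Promoter sequences from RefSeq (GRCm38.p6, 250 bases before to 50 after a gene start) were found for 7 of the 9 genes, in 8 entries because Tnfrsf19 has 2 starts. Those of Tnfrsf12a, Tnfrsf1b and Tnfrsf23 are shown because these genes were higher with TGFB1 in every bulk setting, and capitals mark matches on either strand to 4 motifs. The motifs were TGANTCA (AP-1), GGAATG (TEAD), CAGACA (SMAD) and GGANTTTCC (NF-kB). TGANTCA is its own reverse complement, and no match overlapped another.
Tnfrsf12a, chr17:23677400-23677699, minus strand: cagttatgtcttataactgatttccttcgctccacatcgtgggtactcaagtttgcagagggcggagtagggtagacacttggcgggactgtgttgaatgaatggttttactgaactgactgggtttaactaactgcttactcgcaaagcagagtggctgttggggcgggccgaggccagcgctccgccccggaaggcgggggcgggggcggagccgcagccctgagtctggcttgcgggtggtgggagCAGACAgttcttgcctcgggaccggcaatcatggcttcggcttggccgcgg
Tnfrsf1b, chr4:145246821-145247120, minus strand: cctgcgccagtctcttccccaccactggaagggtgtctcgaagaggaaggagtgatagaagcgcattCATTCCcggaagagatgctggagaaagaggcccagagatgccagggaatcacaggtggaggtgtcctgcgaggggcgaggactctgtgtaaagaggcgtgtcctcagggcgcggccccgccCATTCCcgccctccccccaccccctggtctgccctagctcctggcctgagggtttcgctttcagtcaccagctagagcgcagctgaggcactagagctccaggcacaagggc
Tnfrsf23, chr7:143685826-143686125, minus strand: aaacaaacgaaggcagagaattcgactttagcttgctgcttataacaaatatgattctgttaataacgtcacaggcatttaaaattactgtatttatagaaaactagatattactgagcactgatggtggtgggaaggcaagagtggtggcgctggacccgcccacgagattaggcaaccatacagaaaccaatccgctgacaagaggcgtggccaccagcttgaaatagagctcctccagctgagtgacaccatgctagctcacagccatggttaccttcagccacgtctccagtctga
The SMAD letters occurred once, across the start site of Tnfrsf12a from base -1 to 5, and 21% of all 32851 promoters held them. The TEAD letters occurred in 1 of the 8 entries, at bases -183 to -178 and -62 to -57 of Tnfrsf1b, and 14.7% of all promoters held them. The AP-1 and NF-kB letters occurred in 0 of the 8 entries, and in 7.81% and 1.25% of all promoters. Tnfrsf23 held 0 matches. A match is a description of letters in this window. The Tnfrsf12a promoter held 20 CG pairs, the Tnfrsf1b promoter 13 and the Tnfrsf23 promoter 9.

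Tnfrsf1a encodes TNFR1, the death-domain receptor for TNF. In D7 non-IR organoids its level was 51.1, 48.6 and 48.6 FPKM with vehicle and 38.4, 42.2 and 44.6 FPKM with TGFB1. With vehicle, D7 IR organoids had 79.6, 78.5 and 78.8 FPKM, and with TGFB1 88.3, 84.3 and 89.0 FPKM. The D11 IR libraries stood at 70.5, 84.0 and 81.2 FPKM with vehicle and 53.8, 58.9 and 47.0 FPKM with TGFB1. The TGFB1 libraries were lower in D7 non-IR (ratio of means 0.844), higher in D7 IR (1.10) and lower in D11 IR organoids (0.677), without overlap each time. The directions were the same under quantile normalization and median-ratio scaling, with the D7 IR log2 change of 0.14 at 0.078 under the former.

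Ltbr encodes the lymphotoxin beta receptor, which activates the noncanonical NF-kB pathway. In D7 non-IR organoids its level was 74.9, 75.2 and 76.6 FPKM with vehicle and 57.8, 59.4 and 62.1 FPKM with TGFB1, lower in all 3 libraries (ratio of means 0.790). Vehicle libraries of D7 IR organoids stood at 148, 148 and 147 FPKM and TGFB1 libraries at 139, 145 and 148 FPKM. In D11 IR organoids it was 93.6, 104 and 112 FPKM with vehicle and 105, 110.2 and 98.2 FPKM with TGFB1. The treatment groups of both irradiated settings overlapped, and the small D7 IR difference (log2 change -0.03) had the other sign under median-ratio scaling.

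Tnfrsf19 encodes TROY, a Wnt target known to mark intestinal stem cells. Its level was 8.46, 8.33 and 7.61 FPKM with vehicle and 9.05, 7.82 and 8.02 FPKM with TGFB1 in D7 non-IR organoids. With vehicle, D7 IR organoids had 3.71, 3.43 and 4.03 FPKM, and with TGFB1 3.44, 3.74 and 3.37 FPKM. The D11 IR libraries stood at 4.08, 3.57 and 1.87 FPKM with vehicle and 6.54, 5.33 and 4.51 FPKM with TGFB1. Only the D11 IR groups did not overlap, with a ratio of means of 1.72, a log2 change of 0.66 that ranged from 0.41 to 0.82 when 1 library was left out.

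Tnfrsf21 encodes DR6, a death-domain receptor. With TGFB1 it was slightly lower in D7 non-IR organoids (5.42, 5.60 and 5.68 FPKM against 6.27, 5.70 and 7.28 FPKM). It was also lower in D7 IR organoids (5.33, 4.96 and 5.55 FPKM against 6.18, 5.88 and 6.10 FPKM). In D11 IR organoids the groups overlapped, at 9.02, 9.05 and 7.53 FPKM with TGFB1 and 9.29, 8.19 and 7.11 FPKM with vehicle. The lowest D7 non-IR vehicle library and the highest TGFB1 library differed by little, and the log2 change there ranged from -0.24 to -0.09 when 1 library was left out.

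Irradiation without TGFB1 was compared as levels between the D7 vehicle groups of separate tables. Ltbr was 1.95 times and Tnfrsf1a 1.60 times as high in irradiated as in non-irradiated vehicle organoids. Tnfrsf19 stood lowest against its non-irradiated level, at 3.72 ± 0.30 beside 8.13 ± 0.46 FPKM (SD, n = 3, ratio 0.458). Tnfrsf12a (ratio 0.684), Tnfrsf23 (0.702), Tnfrsf11b (0.774) and Tnfrsf10b (0.853) were also lower in all 3 irradiated libraries, Tnfrsf1b was higher (1.10) and Tnfrsf21 overlapped. That is 3 genes higher and 5 lower, beside 85% of all genes tested that did not overlap, a share that includes any difference in scaling between the tables. The enterocyte markers summed to 3215 to 3358 FPKM in the non-irradiated and 13450 to 14370 FPKM in the irradiated vehicle libraries, and their part in these levels was not tested.

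Between the irradiated vehicle groups of day 11 and day 7, 5 of the 9 genes overlapped, beside 66.9% of all genes tested that did not. Tnfrsf10b (ratio of means 1.51) and Tnfrsf21 (1.36) were higher on day 11, and Ltbr (0.700) and Tnfrsf23 (0.619) were lower. With TGFB1 the means on day 11 beside day 7 were 18.4 beside 46.8 FPKM for Tnfrsf11b and 149 beside 271 FPKM for Tnfrsf12a. Tnfrsf1b stood at 17.7 beside 15.4 FPKM.

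Over the 18 bulk libraries, the genes fell into patterns of likeness on the log2(FPKM + 1) scale, given as Pearson's r across libraries of separately normalized tables. Tnfrsf11b and Tnfrsf12a had r = 0.96, Tnfrsf12a and Tnfrsf23 0.959, and Tnfrsf11b and Tnfrsf1b 0.924. Ltbr and Tnfrsf1a, which lie on the same chromosome with Scnn1a between them, had r = 0.894, and both ran against Tnfrsf19 (-0.813 and -0.884). Among 11473 genes, the one most like Tnfrsf11b was Lama3 (0.995), a laminin chain of basement membrane. For Tnfrsf12a it was Perp (0.991), a desmosome gene and p53 target, with Jun also among its closest (0.988). For Tnfrsf1b it was Rdh10 (0.992), for Tnfrsf23 Acot9 (0.986) with the TGF-beta feedback gene Skil also among its closest (0.984), and for Tnfrsf10b Cgnl1 (0.974). For Ltbr it was Reg1 (0.992), for Tnfrsf1a Ppp1r16a (0.984), for Tnfrsf19 Fbxo45 (0.951) and for Tnfrsf21 Pabpc4 (0.919). With 6 groups behind 18 libraries, these values mostly follow group means.

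In irradiated organoids on day 8 the single-cell libraries placed these levels in time. Each time point was 1 library, so the differences have no replicate check, and intervals are exact Poisson 95% intervals that cover counting error only. Levels are CPM (UMIs of a gene scaled to a common total over the kept cells) and are compared within a gene. Tnfrsf11b had 6, 89, 487 and 1534 UMIs at 0, 6, 15 and 24 h, a level of 0.219 (0.0805 to 0.478), 2.74 (2.204 to 3.38), 18.5 (16.9 to 20.2) and 50.1 (47.6 to 52.7) CPM. Tnfrsf12a stood at 42.3 (39.9 to 44.8), 70.7 (67.8 to 73.7), 86.1 (82.6 to 89.7) and 120 (116 to 123) CPM. Both were above their 0 h interval by 6 h.

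Tnfrsf23 stood at 2.62, 2.51, 4.55 and 7.87 CPM, with overlapping intervals at 0 h (2.06 to 3.32) and 6 h (2.01 to 3.14). Tnfrsf1b stood at 5.28, 5.98, 7.30 and 9.86 CPM and Tnfrsf10b at 14.3, 13.8, 17.0 and 20.4 CPM. For these 3 genes the 6 h and 0 h libraries were not distinguishable at this depth. At 24 h the ratios to 0 h were 2.99 (2.29 to 3.95), 1.87 (1.53 to 2.30) and 1.42 (1.25 to 1.62). Tnfrsf19 was at 11.0, 9.53, 12.7 and 21.3 CPM, so its 24 h level was 1.94 times (1.69 to 2.23) the 0 h level. Tnfrsf21 was lower at 6 h (6.17 CPM), 15 h (5.55 CPM) and 24 h (7.25 CPM) than at 0 h (9.18 CPM). Tnfrsf1a (85.7, 82.1, 86.7 and 98.5 CPM) and Ltbr (125, 122, 133 and 146 CPM) moved least, with 24 h ratios of 1.15 (1.09 to 1.21) and 1.17 (1.12 to 1.23). The Clu-positive regenerative markers summed to 23.1, 81.0, 388 and 921 CPM, the epithelial markers to 5519, 7209, 9316 and 10410 CPM, and median UMIs per cell were 8202, 6709, 7805 and 10440 over the same libraries, and their part in these levels was not tested.

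**Figure D2:**
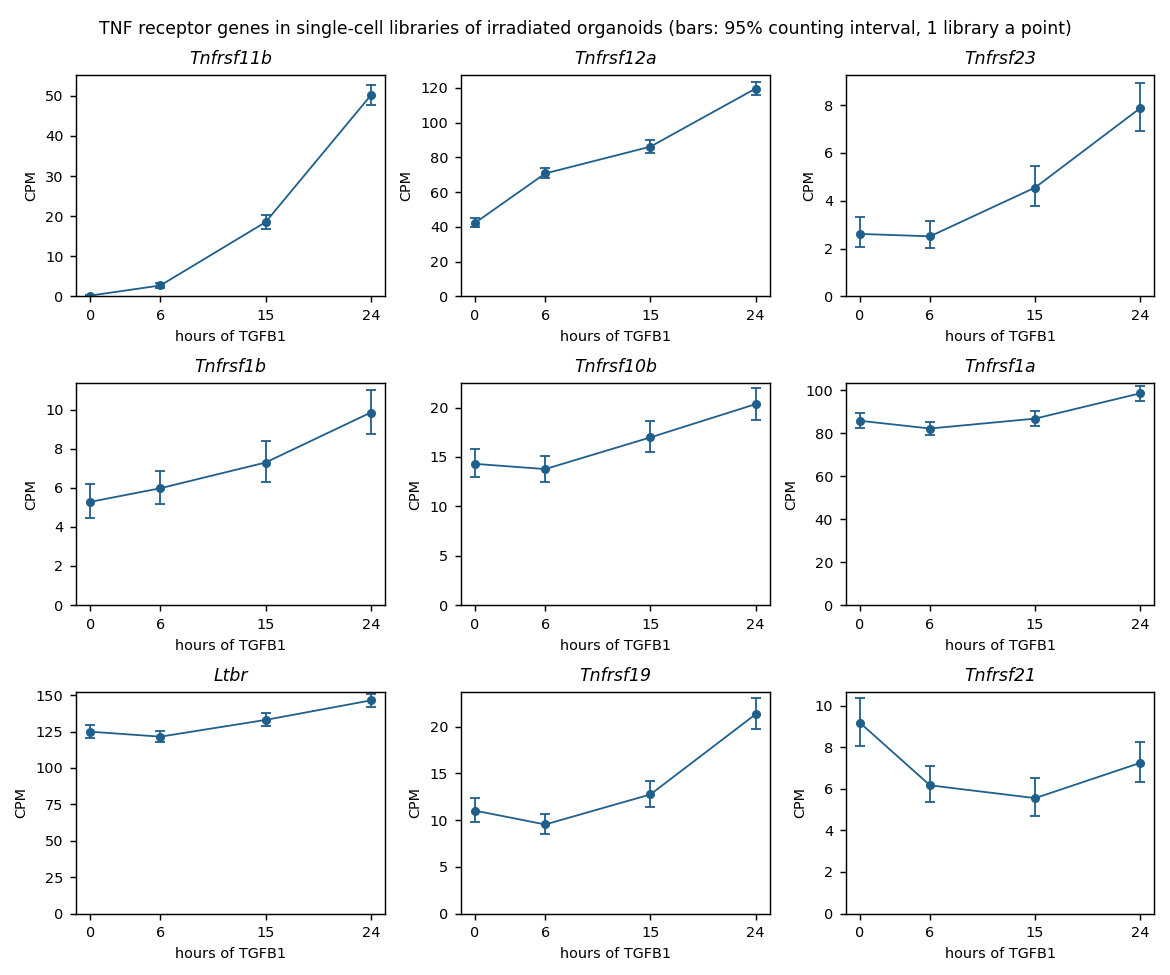
CPM (y axis, linear from 0) of each TNF receptor gene against hours of TGFB1 (x axis) in irradiated day 8 organoids. Each point is 1 library and bars are exact Poisson 95% intervals. Tnfrsf11b and Tnfrsf12a are above their 0 h interval at 6 h, while Tnfrsf23, Tnfrsf1b and Tnfrsf10b are not.

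The kept organoid cells were clustered without the receptor genes and the pathway lists among the variable genes, and clusters were called X-like from markers. Of 14 clusters, 2 were enterocyte-like (clusters 0 and 8), 1 proliferation-like (1), 1 stem-like (3), 1 goblet-like (10) and 1 Clu-positive regenerative-like (9). Cluster 10 also had the enteroendocrine genes Chgb, Cck and Chga among its top 10 genes. The other 8 stayed unnamed, some of them led by pseudogenes or small RNAs.

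At 24 h the Clu-positive regenerative-like cluster, led by Anxa1, Lgals3 and Il1rn, held 9.20% of the cells and 62.5% of all Tnfrsf23 UMIs, 44.7% of Tnfrsf11b, 34.8% of Tnfrsf1b, 33.3% of Tnfrsf12a and 24.2% of Tnfrsf10b UMIs. It held 2.0% of the Tnfrsf19 UMIs, 10.4% of Tnfrsf1a and 8.85% of Ltbr. These cells were also the deepest named cluster beside the proliferation-like one, with median totals of 18470 and 18490 UMIs, against 10440 for the library. Their Tnfrsf23 level was 35.0 CPM (29.7 to 41.1), beside 1.99 (1.00 to 3.84) in stem-like and 3.69 (1.91 to 6.45) in enterocyte-like cells of cluster 0. Next among the named clusters stood enterocyte-like cluster 8, at 6.06 CPM (2.43 to 14.4), so the Clu-positive regenerative-like interval lay above those of the other named clusters in this library.

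Tnfrsf11b was spread more widely. At 24 h its level was 159 CPM (148 to 172) in the Clu-positive regenerative-like, 88.0 (79.8 to 96.8) in the stem-like, 73.1 (65.4 to 81.5) in the proliferation-like and 53.2 (35.0 to 77.4) in the goblet-like cells. In the enterocyte-like clusters 0 and 8 it was 3.69 (1.91 to 6.45) and 5.51 (1.79 to 12.9) CPM. At 6 h the stem-like cells already stood at 12.8 CPM and the proliferation-like at 3.40 CPM, while enterocyte-like cluster 0 stood at 0.301 CPM. After thinning each cell to 2000 UMIs, 13.6% (10.2 to 17.6, exact binomial 95%) of stem-like cells at 24 h had a Tnfrsf11b UMI, against 1.34% (0.277 to 3.86) in enterocyte-like cluster 0. How much of the latter share was background was not estimated. The median depths were 11780 and 12890 UMIs before thinning.

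Tnfrsf12a showed a different distribution. Enterocyte-like cluster 8, led by Ada, Pnliprp2 and Tm4sf4, stood at 233 CPM (203 to 265) at 0 h and 201 CPM (173 to 232) at 24 h, while enterocyte-like cluster 0 stood at 20.5 and 25.5 CPM. In the stem-like cells the level was 44.8 CPM (33.9 to 58.0) at 0 h and 159.7 CPM (149 to 171) at 24 h, and in the proliferation-like cells 46.9 and 154 CPM. The goblet-like cells stood at 42.9 CPM (28.7 to 61.5) and 88.6 CPM (64.7 to 119). The 24 h interval thus lay above the 0 h interval in the stem-like, proliferation-like and goblet-like clusters and overlapped it in both enterocyte-like clusters. In enterocyte-like cluster 0 the 6 h level of 32.2 CPM (28.05 to 36.8) did lie above the 0 h interval (16.85 to 24.6). Its 15 h level was 27.55 CPM (23.03 to 32.7), with an interval that overlapped that of 0 h. Each of these values comes from 1 library.

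Most Tnfrsf19 UMIs came from a few clusters. At 24 h 54.4% of its UMIs lay in the stem-like and 37.8% in the proliferation-like cells. Its level in stem-like cells was 55.0 CPM (42.8 to 69.4) at 0 h and 74.2 CPM (66.7 to 82.3) at 24 h, with overlapping intervals. In proliferation-like cells it was 19.6 CPM (16.3 to 23.4) and 55.4 CPM (48.7 to 62.7). Enterocyte-like cluster 0 gave 0.362 and 1.23 CPM. Stem-like cells were 6.11% of the 0 h and 16.2% of the 24 h library, and proliferation-like cells 17.5% and 9.74%. The part of these shares in the library level of Tnfrsf19 was not tested.

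Tnfrsf1a and Ltbr ran the other way. At 24 h Tnfrsf1a stood at 146 and 233 CPM in enterocyte-like clusters 0 and 8, beside 31.4 CPM in stem-like, 44.0 in proliferation-like and 72.6 in Clu-positive regenerative-like cells. At 0 h it stood at 117 and 157 CPM in the enterocyte-like clusters and 49.5 CPM in stem-like cells. Ltbr stood at 202 and 193 CPM in the enterocyte-like clusters at 24 h, beside 96.6 in stem-like and 92.1 in Clu-positive regenerative-like cells. Tnfrsf21 had its highest level among the named clusters in enterocyte-like cluster 8 (33.1 CPM at 0 h and 36.4 CPM at 24 h).

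**Figure D3:**
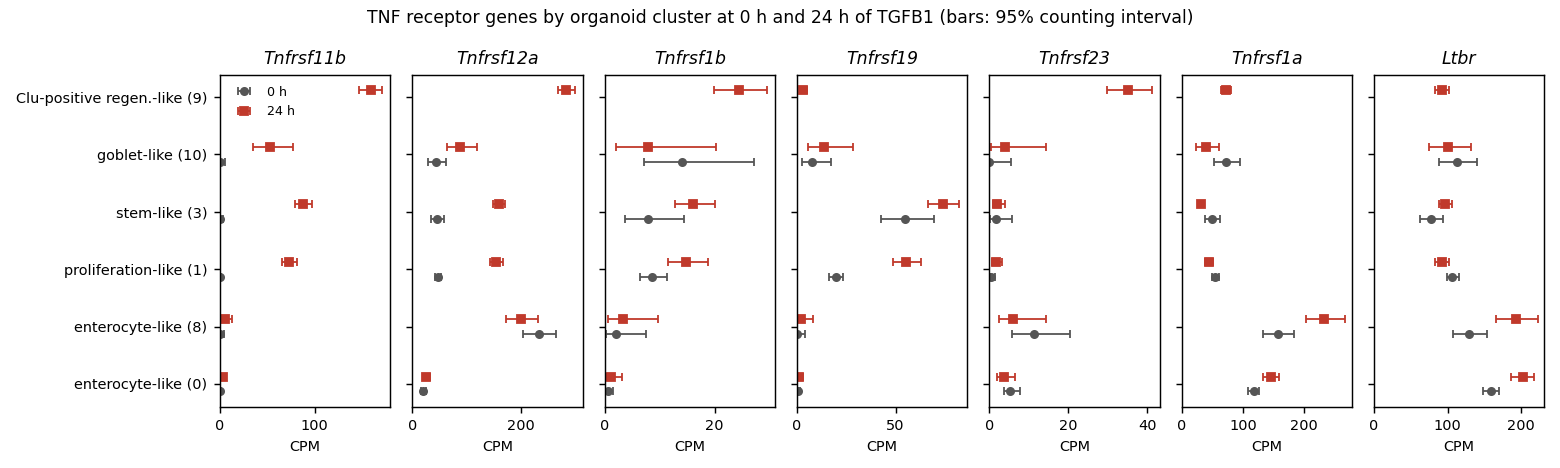
CPM (x axis, linear from 0) of 7 TNF receptor genes in the named organoid clusters (y axis, cluster number in brackets) at 0 h (grey circles) and 24 h (red squares) of TGFB1, with exact Poisson 95% intervals, 1 library per colour. The Clu-positive regenerative-like cluster is drawn at 24 h only, since under 50 cells of the 0 h library lay in it; Tnfrsf23 is highest there, Tnfrsf19 in stem-like and Tnfrsf1a in enterocyte-like cells.

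In Ki67-RFP+ crypt cells, both irradiated libraries stood above the non-irradiated one for all 9 genes, by ratios that ranged widely. The share of all genes that did so was not computed, so nothing is read from that count. Median genes detected per cell were 3591 without irradiation and 4179 and 3994 after it. With 1 non-irradiated library the difference has no replicate check. Tnfrsf12a stood at 12.0 CPM (10.7 to 13.5) without irradiation and at 78.1 (73.5 to 82.9) and 94.3 (89.0 to 99.9) CPM in the irradiated libraries, ratios of 6.49 (5.71 to 7.39) and 7.84 (6.91 to 8.91). Tnfrsf1b stood at 2.21, 14.1 and 14.6 CPM, ratios of 6.35 (4.71 to 8.69) and 6.59 (4.87 to 9.04). Tnfrsf21 stood at 2.29, 10.3 and 12.3 CPM, and Tnfrsf10b at 5.85, 18.6 and 23.9 CPM. The irradiated libraries lay close to each other for all 4 genes beside the distance to the non-irradiated one.

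Tnfrsf11b had 1 UMI in the non-irradiated library and 29 and 28 UMIs in the irradiated ones (ratios of 54.4, counting interval 9.02 to 2222, and 58.5, 9.66 to 2390). Its irradiated levels of 2.11 and 2.27 CPM were low beside the 24 h organoid library. Tnfrsf23 had 10, 19.5 and 19 UMIs, ratios of 3.75 (1.68 to 8.98) and 3.97 (1.76 to 9.55). Tnfrsf19 stood at 1.90, 5.53 and 4.78 CPM. Tnfrsf1a (51.3, 59.1 and 72.3 CPM) and Ltbr (81.0, 93.2 and 103 CPM) differed least, with ratios of 1.15 and 1.41 for Tnfrsf1a and 1.15 and 1.27 for Ltbr. Median UMIs per cell were 11970, 14400 and 13500, the Clu-positive regenerative markers summed to 2.53, 394 and 503 CPM, the immune markers to 17.9, 34.1 and 37.5 CPM, and the Paneth markers to 2566, 779 and 951 CPM; their part in these levels was not tested.

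**Figure D4:**
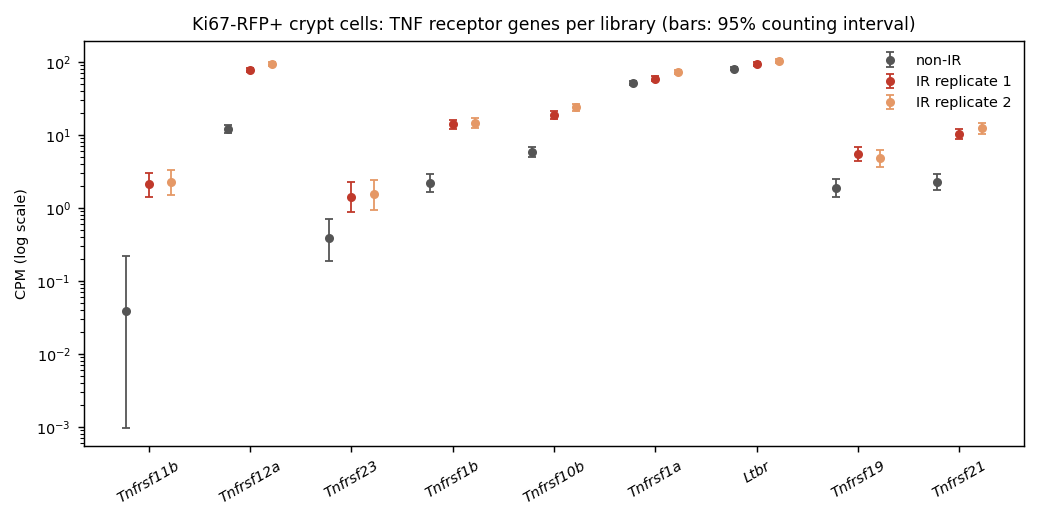
CPM (y axis, log scale) of each TNF receptor gene (x axis) in the 3 libraries of Ki67-RFP+ crypt cells (grey, non-irradiated; red and orange, the irradiated replicates), with exact Poisson 95% intervals. Both irradiated points lie above the grey point for every gene, least for Tnfrsf1a and Ltbr.

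The crypt cells split by irradiation when clustered, so the largest clusters held cells of 1 condition and may stand for libraries rather than types. In the irradiated libraries the levels of the Clu-positive regenerative-like cluster were 100.0 and 118 CPM for Tnfrsf12a, 32.4 and 33.2 CPM for Tnfrsf10b, 15.5 and 18.6 CPM for Tnfrsf1b and 94.1 and 84.7 CPM for Tnfrsf1a. Unnamed cluster 5 of the same libraries, led by Rgcc, stood at 79.1 and 75.4 CPM for Tnfrsf12a and 12.3 and 13.1 CPM for Tnfrsf10b. In the non-irradiated library, the stem-like cluster stood at 7.35 CPM for Tnfrsf12a and 5.20 CPM for Tnfrsf19, and the enterocyte-like cluster at 16.4 CPM and 0 UMIs. Tnfrsf12a was thus higher in each irradiated cluster of at least 50 cells than in each non-irradiated one, the lowest irradiated value being 55.4 CPM and the highest non-irradiated one 19.5 CPM.

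The other genes of the pathway were read from 5 lists of 94 genes, none of them among the 9, chosen with earlier results of these data known. They were tested with limma on log2(FPKM + 1) over all genes whose mean was 1 FPKM or more, a call being a Benjamini-Hochberg adjusted p under 0.05. Without irradiation, 36 of the 59 tested pathway genes rose with TGFB1 and 12 fell, beside 33.3% and 34.9% of all genes tested. In D7 IR organoids 42 of 62 rose and 8 fell, beside 35.8% and 39.7%. On day 11, 32 of 61 rose and 15 fell, beside 32.3% and 31.6%. The median log2 change of the tested pathway genes was 0.22, 0.53 and 0.23, and that of all genes tested -0.02, -0.03 and 0.01. Of the tested pathway genes, 4, 5 and 7 reached the filter only through the group in which they were high: 4, 5 and 5 through TGFB1, all counted as higher, and on day 11 also Tnfsf10 and Traf5 through vehicle, counted as lower. These genes had to differ, so the counts and medians are a description and nothing is read from them. With no filter, 39 rose and 13 fell of 84 genes, 45 and 8 of 86, and 38 and 18 of 86 in the same order.

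Of the 18 TNF superfamily ligands, 5, 6 and 5 passed the filter in the 3 settings in the order above. In each, 3 rose and 2 fell, with median log2 changes of 1.10, 0.61 and 0.85. Of those that passed, 1, 2 and 1 did so only through TGFB1, and on day 11 Tnfsf10 only through vehicle. These counts and medians are thus a description, to be set beside the shares of all genes tested given above. TNF itself (Tnf), the ligand of Tnfrsf1a and Tnfrsf1b, rose in each setting: 4.57 ± 0.11 to 11.7 ± 1.38 FPKM in D7 non-IR, 2.35 ± 0.31 to 19.8 ± 1.73 FPKM in D7 IR, and 4.48 ± 0.62 to 11.8 ± 0.96 FPKM in D11 IR organoids (SD, n = 3). The limma log2 changes were 1.19, 2.63 and 1.23 (adjusted p = 1.42e-07, 1.13e-09 and 8.46e-06). TRAIL (Tnfsf10), the ligand of Tnfrsf10b, Tnfrsf23 and Tnfrsf11b, was lower with TGFB1 in each: 8.22 to 1.88, 2.96 to 1.86 and 13.2 to 0.831 FPKM. In D7 non-IR and D7 IR organoids the limma log2 changes were -1.68 and -0.47 (adjusted p = 1.2e-09 and 0.00024). On day 11 it passed the filter only through vehicle, so only its levels are given there. Tnfsf13 (APRIL) fell in all 3 settings too, while Tnfsf13b (BAFF), which passed the filter only through TGFB1, stood at 0.485 and 7.68 FPKM in D7 non-IR and at 0.745 and 4.76 FPKM in D7 IR organoids (vehicle, then TGFB1). The ligand of Tnfrsf12a, Tnfsf12, lay under the filter with means of 0.129 to 0.315 FPKM. Tnfsf11, the RANKL gene, was listed at 0 in all 18 libraries. These 2 ligands were looked at for their receptors, after values were seen.

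In the single-cell libraries of organoids Tnf stood at 4.79 (4.01 to 5.69), 5.21, 9.85 and 16.2 (14.8 to 17.7) CPM at 0, 6, 15 and 24 h, and Tnfsf10 at 8.38 (7.33 to 9.53), 6.09, 6.64 and 5.37 (4.57 to 6.24) CPM. In crypt cells Tnf stood at 0.194 CPM without irradiation and at 15.8 and 9.56 CPM after it. Tnfsf10 stood at 15.6 CPM without irradiation and at 3.71 and 2.23 CPM after it. Tnfsf12 had at most 4 UMIs in any of the 7 libraries. These are values of single libraries with no test.

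Of the other receptors, 6 of 19 were tested in each setting. Tnfrsf22, the decoy next to Tnfrsf23, was higher with TGFB1 in each, and is subject to the same uncertainty of shared reads. Without irradiation it passed the filter only through TGFB1, so only its levels are given there (0.879 and 4.83 FPKM). In D7 IR and D11 IR organoids its limma log2 changes were 1.27 (adjusted p = 5e-06) and 1.39 (2.18e-06). Tnfrsf14, the herpesvirus entry mediator, fell in D7 non-IR (7.502 to 4.15 FPKM, log2 change -0.73, limma adjusted p = 2.12e-05) and D11 IR organoids (21.7 to 7.61 FPKM, -1.38, 3.29e-05). In D7 IR organoids Tnfrsf14 rose (8.20 to 9.91 FPKM, log2 change 0.24, limma adjusted p = 0.00583), and its irradiation by TGFB1 term was 0.97 (adjusted p = 6.09e-06). Eda2r, a p53 target, fell in D7 non-IR (log2 change -0.58) and rose in D11 IR organoids (0.83). Fas, the classical death receptor, rose in D7 IR organoids from 3.78 to 7.61 FPKM (log2 change 0.84, limma adjusted p = 1.47e-05). It also rose in D11 IR organoids (1.39 to 2.45 FPKM, 0.52, limma adjusted p = 0.00782) and was not called in D7 non-IR organoids. Tnfrsf11a, the receptor RANK, rose by 0.17 in D7 non-IR organoids, a call that was lost without any 1 of 3 libraries (vehicle replicate 2 or 3, or TGFB1 replicate 3, adjusted p = 0.0522 to 0.0556), and fell by 0.46 in D11 IR organoids. Its rise in D7 IR organoids was 0.41 (6.95 to 9.53 FPKM, limma adjusted p = 0.000137). In all, 2, 4 and 3 of the 6 rose and 2, 0 and 2 fell on day 7 without irradiation, day 7 with it and day 11. The median log2 changes were -0.04, 0.325 and 0.34. Of all genes tested, 33.3%, 35.8% and 32.3% rose and 34.9%, 39.7% and 31.6% fell, and nothing is read from these counts.

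Of the adaptors and proximal kinases, 14 of 24, 13 of 23 and 10 of 24 rose and 4, 4 and 7 fell in the same order. Their median log2 changes were 0.15, 0.21 and 0.08. Beside them, 33.3%, 35.8% and 32.3% of all genes tested rose and 34.9%, 39.7% and 31.6% fell. Nothing is read from the counts. Casp8, the caspase engaged by death receptors, rose from 68.3 to 154 FPKM in D7 non-IR (limma log2 change 1.16 ± 0.04, SE) and from 37.7 to 76.7 FPKM in D7 IR organoids (1.01 ± 0.05). On day 11 it fell from 45.4 to 37.5 FPKM (-0.27 ± 0.09, limma adjusted p = 0.0223), and its day by TGFB1 term was -1.28 (adjusted p = 1.52e-07). Fadd, the partner adaptor of Casp8, fell in D7 non-IR and D7 IR organoids (log2 change -0.43 and -0.33). Ripk3, the kinase of necroptosis, rose in D7 non-IR (47.6 to 94.6 FPKM) and D7 IR organoids (48.1 to 77.2 FPKM). Birc3, a ubiquitin ligase of TNF receptor complexes, rose in D7 non-IR (13.7 to 23.7 FPKM) and D7 IR organoids (12.9 to 26.7 FPKM). Neither gene was called on day 11. Tab1, a subunit of the TAK1 kinase complex, fell in all 3 settings. On day 11 Traf4 (67.5 to 123 FPKM) and Traf3 (7.33 to 13.2 FPKM) rose, as they did in both day 7 settings by smaller log2 changes. Rnf31 fell on day 11 (15.6 to 9.35 FPKM) and rose in D7 non-IR (log2 change 0.13) and D7 IR organoids (0.26). Traf5 stood at 1.56 FPKM with vehicle and 0.471 FPKM with TGFB1 on day 11.

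Of the 13 NF-kB subunits and inhibitors, 9, 11 and 6 rose and 1, 1 and 2 fell in that order, with median log2 changes of 0.30, 0.72 and 0.05. The shares of all genes tested were 33.3%, 35.8% and 32.3% higher and 34.9%, 39.7% and 31.6% lower, and these counts are a description. Bcl3, a nuclear cofactor of NF-kB, rose from 31.9 to 52.7, from 48.1 to 168 and from 42.4 to 90.6 FPKM. Rela, the canonical subunit, rose in all 3 settings (26.9 to 45.3, 43.5 to 92.9 and 48.6 to 66.1 FPKM). Nfkb2, the noncanonical subunit, rose from 17.1 to 52.8 FPKM in D7 IR organoids (limma log2 change 1.57, adjusted p = 4.31e-09). It also rose in D7 non-IR organoids (20.4 to 29.6 FPKM, log2 change 0.51) and was not called on day 11. Chuk fell in D7 non-IR organoids (log2 change -0.25) and in the irradiated ones of day 7 (-0.17), the latter a call lost without any 1 of 4 libraries (vehicle replicate 1 or 3, or TGFB1 replicate 1 or 2, adjusted p = 0.0595 to 0.1), and it rose on day 11 (log2 change 0.36, adjusted p = 0.00586). Nfkbib rose in D7 non-IR (log2 change 0.57), D7 IR (0.74) and D11 IR organoids (19.96 to 37.9 FPKM, 0.89). On day 11 Relb fell from 42.1 to 19.5 FPKM (log2 change -1.07, limma adjusted p = 2.44e-06) and Nfkbia, the feedback inhibitor, from 73.1 to 52.2 FPKM. Both rose in D7 IR organoids, Relb with a log2 change of 1.07 and Nfkbia from 42.9 to 106 FPKM (1.29, limma adjusted p = 6.64e-10). Nfkbia also rose in D7 non-IR organoids (118.7 to 153 FPKM, 0.36, limma adjusted p = 2.07e-05).

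Of the NF-kB targets, 8 of 11, 11 of 14 and 10 of 13 rose and 3, 1 and 2 fell, with median log2 changes of 0.76, 1.54 and 0.89. Of those tested, 2, 3 and 4 passed the filter only through TGFB1, the chemokine genes Cxcl1 and Cxcl2 among them on day 7. These had to be higher, so the counts and medians are a description, to be set beside the same shares of all genes tested. Without irradiation Cxcl1 stood at 0.206 FPKM with vehicle and 2.15 with TGFB1, and Cxcl2 at 0.114 and 2.10 FPKM. Cxcl1 stood at 0.418 and 5.20 FPKM in D7 IR organoids, and on day 11 Csf2 stood at 0.293 and 3.99 FPKM and Cxcl5 at 0.0877 and 3.14 FPKM. Ier3, an early response gene, was above the filter in both groups of each setting. It rose in D7 non-IR (124 to 250 FPKM, log2 change 1.00), D7 IR (17.2 to 68.0 FPKM, 1.92) and D11 IR organoids (46.4 to 86.1 FPKM, 0.89). Sod2, a mitochondrial superoxide dismutase, fell in all 3 settings (log2 change -0.51, -0.52 and -0.59). Tnip1, an inhibitor of NF-kB signalling, rose in D7 non-IR (30.3 to 37.6 FPKM, log2 change 0.30, limma adjusted p = 2.28e-05) and D7 IR organoids (37.3 to 72.5 FPKM, 0.94, limma adjusted p = 3.73e-08). It fell in D11 IR organoids by 0.22, a call lost without any 1 of 4 libraries (vehicle replicate 2 or 3, or TGFB1 replicate 1 or 3, adjusted p = 0.0591 to 0.102). The lists share genes that respond to many signals, and their counts do not show which receptor acted.

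The TGFB1 response of 32 of 61 pathway genes differed between irradiated and non-irradiated organoids on day 7: 27 terms were higher and 5 lower with irradiation, beside 25.3% and 27.8% of all genes tested. The terms were higher for 9 of 14 NF-kB targets and 8 of 13 NF-kB subunits and inhibitors, and lower for 0 of either list. Cxcl10 reached the filter only through D7 IR organoids with TGFB1, at 4.11 FPKM beside 0.306 to 0.429 FPKM in the other D7 groups. Its higher term thus carries no test, and the counts of both interactions are a description. Ccl20, a chemokine gene, fell in D7 non-IR organoids (14.01 to 5.40 FPKM) and stood at 9.59 and 35.5 FPKM in D7 IR organoids (interaction 3.02 ± 0.17, SE, limma adjusted p = 2.82e-08). Cxcl10 had the next highest term (1.72), and Tnfsf9 (-0.99) and Tnfsf13b (-0.83) the lowest. Between day 11 and day 7 of irradiated organoids, 41 of 61 pathway genes differed in their TGFB1 response, 12 terms being higher and 29 lower on day 11, beside 31.5% and 33% of all genes tested. Relb, at 23.0 and 49.5 FPKM on day 7, fell on day 11 (interaction -2.14 ± 0.08, SE, limma adjusted p = 4.52e-10). Tnfsf10 (-2.48) had the lowest term, and Csf2 (1.76) and Tnfsf9 (1.36) the highest.

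Markers of other cell types moved with TGFB1 beside these lists. The summed level of the 8 immune markers was 34.3 to 39.7 FPKM with vehicle and 104 to 112 FPKM with TGFB1 in D7 non-IR organoids. Most of that sum was Cd74, at 24.3 to 27.9 and 79.9 to 89.4 FPKM, while Ptprc stood at 0 to 0.0134 and 0 to 0.0584 FPKM. In D7 IR organoids the sum was 6.34 to 8.01 and 15.2 to 17.3 FPKM. The stem markers summed to 955 to 989 FPKM with vehicle and 386 to 471 FPKM with TGFB1 in D7 IR organoids, and the proliferation markers to 374 to 393 and 131 to 149 FPKM. Without irradiation the stem sums were 871 to 955 and 563 to 586 FPKM, and the proliferation sums 456 to 466 and 375 to 391 FPKM. On day 11 the stem sums were 545.5 to 706.5 and 701 to 858 FPKM, and the proliferation sums 375 to 422 and 389 to 408 FPKM. The Clu-positive regenerative markers, given above without irradiation, summed to 253 to 284 FPKM with vehicle and 4326 to 4689 FPKM with TGFB1 in D7 IR organoids, and to 130.3 to 166 and 4338 to 5207 FPKM on day 11. The enterocyte markers summed to 3243 to 5846 and 2086 to 2472 FPKM on day 11, against 13450 to 14370 and 20270 to 21130 FPKM in D7 IR organoids. The enteroendocrine markers summed to 908 to 1089 and 361 to 456 FPKM on day 11, and to 544 to 598 and 1282 to 1340 FPKM in D7 IR organoids. The part of these markers in the receptor levels and pathway counts was not tested.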

How the data were processed

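Bulk RNA and single-cell RNA of mouse intestinal organoids and crypt cells were analysed. The authors deposited FPKM in 3 tables of 6 libraries, and expected counts of UMIs per gene and cell with fractional entries, per the file headers and values. The submitters' processing notes name TopHat2 2.1.0, Cuffnorm 2.2.1, STARsolo with STAR 2.7.10a and the builds mm9 and GRCm39, without roles. ATAC peaks, deposited with a −log10 q score, were not analysed here: 5.76% to 7.05% of peaks lay near a GRCm38 gene start, so the builds were taken as different.

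Groups came from the sample titles. The genes and lists were chosen with earlier results of these data known. FPKM were fitted as log2(FPKM + 1) with limma 3.58.1 in R 4.3.3 (trend, robust) for genes whose mean was 1 FPKM or more. Calls were made at an adjusted p under 0.05. The TGFB1 contrasts were fitted per table, and these steps were tested on simulated data. Each interaction was fitted over both of its tables together. The tables were normalized separately, and a difference in scale between them need not cancel fully for genes of low FPKM. Nothing in the labels says that replicates were separate cultures, so p-values measure the spread between these libraries, which may be technical. From each list and TGFB1 contrast, the 2 called genes with the largest rise and the 2 with the largest fall were named, and from each interaction the 2 highest and 2 lowest terms. Likeness named the genes of highest r.

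Cells had at least 500 UMIs, 250 genes and at most 20% mitochondrial UMIs. Expected counts were summed per library, giving CPM, and rounded for intervals. For shares, cells were thinned to 2000 UMIs, which left out 3 cells, all in the 6 h library. Clusters used scanpy (1.11.5, 2000 variable genes, 30 components, 15 neighbours, Leiden resolution 0.6). A cluster of at least 50 cells was named where the median fold of a marker list was at least 2 with at least 3 markers detected. It stayed unnamed where 3 or more of its top 10 genes were pseudogenes or small RNAs or where a second list came close, rules set after clusters were seen. Scrublet called 0.429% to 1.99% of cells per library as doublets, and none were removed. Alternatives were other pseudocounts, filters, scalings, a replicate block, leaving out each replicate, all barcodes, deeper cells and whole-number entries.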

Additional observations from a re-analysis of the deposited data

Results flagged for a closer look

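The TGFB1 response of Tnfrsf1a had opposite directions between settings, with every library on one side: its log2 change was -0.24 in D7 non-IR, 0.14 in D7 IR and -0.56 in D11 IR organoids. That difference was not tested, since the gene was chosen with these values known.

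For pathway genes the difference between settings was itself fitted as an interaction term in limma. The terms given are the 2 highest and 2 lowest of each interaction, from lists chosen with earlier results of these data known. Cxcl10 reached the filter only through D7 IR organoids with TGFB1, and Tnfsf13b only through the TGFB1 groups of day 7. Their terms are a description. Between irradiated and non-irradiated day 7 organoids the terms were 3.02 for Ccl20, 1.72 for Cxcl10, -0.99 for Tnfsf9 and -0.83 for Tnfsf13b. Between day 11 and day 7 of irradiated organoids they were 1.76 for Csf2, 1.36 for Tnfsf9, -2.48 for Tnfsf10 and -2.14 for Relb.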

How the results depend on the processing

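All 72 alternative values of the 5 pathway counts were within 1.5 times the count reported. They ranged from 40 to 52 in D7 non-IR, 39 to 53 in D7 IR and 34 to 56 in D11 IR organoids, from 24 to 35 for irradiation by TGFB1 and from 33 to 52 for day by TGFB1. The replicate block gave 47, 52, 47, 35 and 40 in that order. Replicate numbers were not taken to pair the libraries, because deviations of same-numbered libraries correlated by -0.0856 to 0.213. Of 779 alternative values for named pathway genes, 13 lost the call, all for Tnfrsf11a, Chuk and Tnip1, and 0 changed sign. Chuk in D7 IR organoids also lost it with no filter (adjusted p = 0.0507) and with median-ratio scaling (0.0509). The 779 values and the 5 counts include genes that reached the filter only through the group in which they were high. Those genes had to differ, so their kept calls and signs are no check. The Ltbr log2 change in D7 IR organoids was 0.0046 with median-ratio scaling, against -0.03 as reported. In all, 6 of 243 alternative values of the receptor genes changed sign, all where the groups overlapped: the others were Ltbr and Tnfrsf21 in D11 IR and Tnfrsf19 in D7 non-IR organoids, at -0.05 to 0.08, -0.03 to 0.14 and -0.03 to 0.06 when 1 library was left out. With a pseudocount of 0.1 the Tnfrsf11b log2 change was 5.11, 4.92 and 3.71 in the 3 settings in the same order, against 4.58, 4.29 and 3.05. That pseudocount moved Tnfrsf1b to 1.53, 1.42 and 1.62, and Tnfrsf23 to 2.26 and 2.196 on day 7. Quantile normalization moved Tnfrsf12a (1.30) and Ltbr (-0.39) in D7 non-IR and Ltbr (-0.13) and Tnfrsf1a (0.078) in D7 IR organoids, and median-ratio scaling moved the last to 0.18. Without 1 library Tnfrsf11b was at 2.87 to 3.18, Tnfrsf23 at 1.55 to 2.02 and Tnfrsf19 at 0.41 to 0.82 on day 11, and Tnfrsf21 at -0.24 to -0.09 in D7 non-IR organoids. Single-cell levels stayed within their intervals with all barcodes and with deeper cells. Using whole-number entries only, 31 of 63 levels left their interval, at 0.981 to 1.28 times the level reported. The bulk depth is unknown, and receptor genes with few UMIs, such as Tnfrsf11b and Tnfrsf23 in crypt cells, are limited by counting.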
